A study of Mus musculus with 8 samples.

Results

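*Amelx*, *Ambn* and *Enam*, which encode the enamel matrix proteins amelogenin, ameloblastin and enamelin, the enamel proteases *Mmp20* and *Klk4*, and *Odam* and *Amtn*, which encode proteins of maturation-stage ameloblasts, are 7 of the 12148 genes measured in the dental pulp (DP) of the mouse first molar (M1) at P7. They were chosen by name, and the set was selected on its values in these same libraries, namely its wide spread between libraries and the opposite direction of *Klk4* and the matrix genes between genotypes. Those values are therefore given as a description, without a test. All 7 were found in the table by their Ensembl identifiers, and none was lost to a filter on low values.

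RNA came from 4 Osterix-Cre control libraries, numbered 49 to 52 in their labels, and 4 *Tgfbr2cko* libraries, numbered 53 to 56. In both groups the Osterix promoter drives Cre recombinase in dental mesenchyme and odontoblasts, so the controls carry the recombinase too. The *Tgfbr2cko* mice (Osterix-Cre:Tgfbr2f/f) in addition carry floxed alleles of *Tgfbr2*, a receptor for transforming growth factor β, and all mice were C57BL/6J. The left and right mandibular molars were combined, mineralized tissue and enamel organ were dissected away from the pulp, and the RNA was amplified from a low input. The labels do not say which libraries came from separate animals, so a p value here measures only the spread between these libraries, and since the tissue is bulk, fewer cells of a type and less RNA per cell cannot be told apart. Between 8682872 and 13539670 reads were counted per library. *Tgfbr2* itself was 7.16, 7.62, 7.64 and 7.52 log2 CPM (CPM, reads scaled to a common library total, on a log2 scale) in the controls and 7.02, 7.00, 7.16 and 7.61 in *Tgfbr2cko*, a difference of −0.29 (SE 0.17, adjusted p = 0.79, limma-trend), or −0.42 without library 56. The library labelled *Tgfbr2cko* 56 lay at the upper end of the control range for *Tgfbr2*, and that labelled 55 lay level with the lowest control. Of the reads of library 56, 19.3% fell on the 7 enamel genes, so results that rest on that library are given with and without it.

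Enamel is laid down by ameloblasts, the inner cells of the enamel organ epithelium, which first secrete a protein matrix and then remove it as the mineral matures. Amelogenin, ameloblastin and enamelin form that matrix, matrix metalloproteinase 20 cleaves it during the secretory stage, and kallikrein-related peptidase 4 degrades what remains during maturation, when odontogenic ameloblast-associated protein and amelotin are deposited at the enamel surface. Odontoblasts, the dentin-forming cells at the edge of the pulp, are also known to transcribe some of these genes, *Mmp20* and *Klk4* among them.

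Of the 7 genes, 4 lie on 1 stretch of chromosome 5 that spans 621 kb on GRCm38, in the order *Odam* (87885029 to 87894174), *Amtn* (88376108 to 88385916), *Ambn* (88455991 to 88468531) and *Enam* (88487975 to 88506049), all on the plus strand. *Amelx* lies on chromosome X (169176114 to 169187200, minus strand) inside *Arhgap6*, which runs on the opposite strand, shares 0 exon bases with it and was not analysed here. *Mmp20* lies on chromosome 9 (7628231 to 7674979, plus strand) and overlaps the antisense gene *AV064505* without a shared exon base. *Klk4* lies on chromosome 7 (43881160 to 43885804, plus strand). The identifiers are ENSMUSG00000031354.16 (*Amelx*), ENSMUSG00000029288.11 (*Ambn*), ENSMUSG00000029286.12 (*Enam*), ENSMUSG00000018620.3 (*Mmp20*), ENSMUSG00000006948.7 (*Klk4*), ENSMUSG00000009580.15 (*Odam*) and ENSMUSG00000029282.3 (*Amtn*).

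The 250 bases before the RefSeq transcription start are given here for 5 of these genes, from RefSeq on GRCm38.p6: *Amelx* for the matrix genes, *Odam* and *Amtn* of the chromosome 5 stretch, which varied together, and the proteases *Mmp20* and *Klk4*, of which only *Klk4* separated the genotypes. Capitals mark exact matches on either strand to 4 short motifs. These were TATAAA, the core promoter box bound by the TATA-binding protein, TGTGGT, the core bound by RUNX factors, CAGACA, a SMAD-binding element, and TAATTG, a homeodomain site. None of these bases lies in an annotated exon.
Amelx, chrX:169187210-169187459, minus strand: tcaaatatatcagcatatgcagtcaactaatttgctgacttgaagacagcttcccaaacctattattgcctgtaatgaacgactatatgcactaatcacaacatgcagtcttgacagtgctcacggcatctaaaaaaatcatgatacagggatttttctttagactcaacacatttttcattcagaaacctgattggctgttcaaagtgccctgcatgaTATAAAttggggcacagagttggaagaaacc
Odam, chr5:87884760-87885009, plus strand: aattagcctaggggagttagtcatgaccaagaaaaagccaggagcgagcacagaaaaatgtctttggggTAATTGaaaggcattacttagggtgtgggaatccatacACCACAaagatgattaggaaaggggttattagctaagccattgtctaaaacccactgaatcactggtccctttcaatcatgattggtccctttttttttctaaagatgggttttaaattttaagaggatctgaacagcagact
Amtn, chr5:88375858-88376107, plus strand: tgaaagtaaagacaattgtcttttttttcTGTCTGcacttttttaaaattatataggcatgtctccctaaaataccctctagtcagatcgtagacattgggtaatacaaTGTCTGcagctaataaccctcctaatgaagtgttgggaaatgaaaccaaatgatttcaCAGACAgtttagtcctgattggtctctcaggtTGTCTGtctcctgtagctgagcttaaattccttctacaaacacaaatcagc
Mmp20, chr9:7627981-7628230, plus strand: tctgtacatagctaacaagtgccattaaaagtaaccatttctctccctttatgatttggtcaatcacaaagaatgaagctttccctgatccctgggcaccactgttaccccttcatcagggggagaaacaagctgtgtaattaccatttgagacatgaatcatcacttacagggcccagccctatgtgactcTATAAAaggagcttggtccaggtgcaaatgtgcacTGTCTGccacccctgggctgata
Klk4, chr7:43880910-43881159, plus strand: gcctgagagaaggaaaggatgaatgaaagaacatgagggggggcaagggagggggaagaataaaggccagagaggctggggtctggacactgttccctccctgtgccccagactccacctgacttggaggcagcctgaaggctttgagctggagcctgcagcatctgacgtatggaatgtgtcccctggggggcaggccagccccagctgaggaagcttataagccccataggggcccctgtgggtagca

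*Amelx* had a TATAAA that began 31 bases before the start, *Mmp20* had one at 58 bases and *Enam* one at 137 bases, while 12.4% of all 32851 mouse promoters of the same length held one. The *Amtn* window held 4 CAGACA matches, 3 of them on the minus strand where they read TGTCTG. Any CAGACA occurred in 17.1% of promoters, and 4 or more in 0.0822%. *Mmp20* held 1 such match, 23 bases before the start. TAATTG stood in *Odam* and *Ambn* (7.17% of promoters), and the RUNX core stood on the minus strand of *Odam*, 143 bases before the start (14% of promoters). The *Klk4* window held none of the 4 motifs, and its GC content was 59.6%, against 37.2% to 45.6% in the other members and a median of 52.4% over all promoters. No matches overlapped each other, and a match is a description of the letters only.

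The matrix genes were high in both genotypes and differed far more between libraries than between genotypes. *Amelx* was 13.54, 10.45, 10.76 and 11.32 log2 CPM in control libraries 49 to 52 and 10.99, 10.29, 13.88 and 16.46 in *Tgfbr2cko* libraries 53 to 56. Libraries 56, 55 and 49 were the 3 highest, and the genotypes overlapped. The lowest *Amelx* value, in library 54, rested on 15341 reads and the highest, in library 56, on 1224358 reads, a 72.4-fold range in CPM.

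*Ambn* ranked the same 3 libraries highest. Its log2 CPM was 13.21, 10.87, 11.02 and 11.51 in the controls and 11.19, 11.12, 13.59 and 16.52 in *Tgfbr2cko*. *Enam*, the largest and least abundant of the matrix proteins, was 9.48, 6.38, 7.18 and 7.80 log2 CPM in the controls and 7.80, 6.41, 10.27 and 12.86 in *Tgfbr2cko*. The range was 50.4-fold for *Ambn* and 89.5-fold for *Enam*.

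*Amelx* averaged 11.52 ± 1.40 log2 CPM over the 4 controls and 12.91 ± 2.84 over the 4 *Tgfbr2cko* libraries (mean ± SD), a difference of 1.39. For *Ambn* the means were 11.65 ± 1.07 and 13.11 ± 2.55 (difference 1.45), and for *Enam* 7.71 ± 1.32 and 9.34 ± 2.84 (difference 1.63). Each of these differences was smaller than the SD of the *Tgfbr2cko* libraries. Without the library labelled *Tgfbr2cko* 56 they were 0.20, 0.32 and 0.45.

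**Figure D1:**
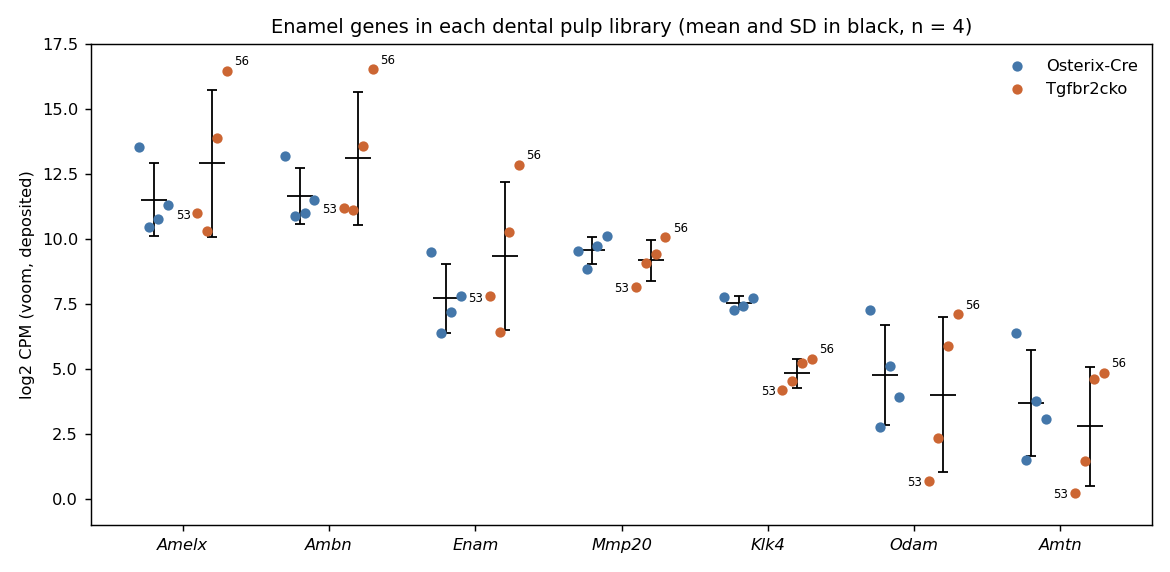
Log2 CPM of the 7 enamel genes (y axis) in each of the 8 libraries, by gene (x axis) and genotype, with mean and SD (n = 4) in black and libraries 53 and 56 numbered. Only the points of *Klk4* separate by genotype, at 7.26 to 7.78 log2 CPM in the controls and 4.20 to 5.39 in *Tgfbr2cko*.

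Together the 7 genes took 2.33%, 0.396%, 0.501% and 0.705% of the counted reads in control libraries 49 to 52, and 0.490%, 0.412%, 2.95% and 19.3% in *Tgfbr2cko* libraries 53 to 56. The 95% Wilson interval of the last share was 19.30% to 19.34% and that of library 55 was 2.935% to 2.958%. These intervals cover counting error only, since amplified reads without molecular identifiers are not independent molecules, and they are far narrower than the distance between libraries. *Amelx* and *Ambn* alone made up 9.04% and 9.41% of library 56.

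**Figure D2:**
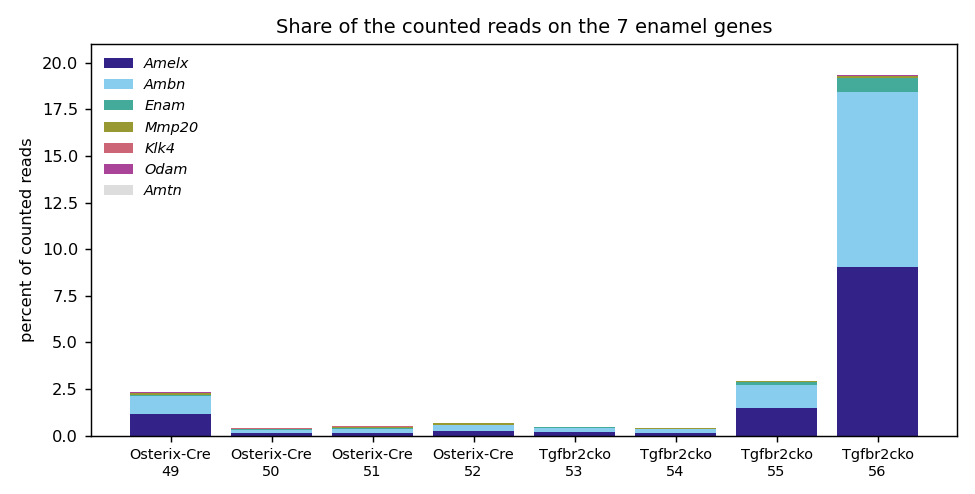
Percent of the counted reads (y axis) on each of the 7 enamel genes, stacked, in each of the 8 libraries (x axis). *Amelx* and *Ambn* make up most of each bar, and library 56 reaches 19.3% while 5 libraries stay under 1%.

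*Mmp20*, the secretory-stage protease, was much steadier. It was 9.55, 8.84, 9.73 and 10.11 log2 CPM in the controls and 8.16, 9.06, 9.42 and 10.06 in *Tgfbr2cko*. Its highest library was a control, number 52, its range was 3.88-fold, and the genotypes overlapped. The means were 9.56 ± 0.53 (SD, n = 4) and 9.17 ± 0.80 (SD, n = 4), a difference of −0.38 that was −0.04 without library 53 and −0.68 without library 56.

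*Klk4*, the maturation-stage protease, was the 1 member whose genotypes did not overlap. It was 7.78, 7.26, 7.43 and 7.71 log2 CPM in the controls, on 1484 to 2153 reads, and 4.20, 4.53, 5.22 and 5.39 in *Tgfbr2cko*, on 163 to 568 reads. Every *Tgfbr2cko* library was at least 1.87 log2 units under every control. The mean fell from 7.55 ± 0.24 (SD, n = 4) to 4.84 ± 0.56 (SD, n = 4), a difference of −2.71, or 6.54-fold lower.

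The difference of *Klk4* lay between −2.89 and −2.50 whichever library was left out, and of the 12148 genes only *Cib3* had a lower one. Over all genes, 5.27% did not overlap between genotypes in either direction. Since the contrast chose this gene, its place is given without a test. Within the *Tgfbr2cko* group the 2 highest *Klk4* values, 5.22 and 5.39, came from libraries 55 and 56, in which the matrix genes were also highest.

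The maturation-stage genes *Odam* and *Amtn*, at the start of the chromosome 5 stretch, spread as widely as the matrix genes. *Odam* was 7.25, 2.78, 5.10 and 3.93 log2 CPM in the controls and 0.71, 2.35, 5.89 and 7.09 in *Tgfbr2cko*. *Amtn* was 6.38, 1.51, 3.77 and 3.06 in the controls and 0.24, 1.45, 4.62 and 4.85 in *Tgfbr2cko*. Both were highest in control library 49 and lowest in library 53, where they rested on 14 and 10 reads.

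Their means overlapped widely between genotypes. *Odam* averaged 4.76 ± 1.91 log2 CPM over the controls and 4.01 ± 2.98 over *Tgfbr2cko* (SD, n = 4 each), a difference of −0.76, and *Amtn* was 3.68 ± 2.03 and 2.79 ± 2.30, a difference of −0.89. Single libraries moved both differences. That of *Odam* became 0.35 without library 53 and 0.07 without library 49, but −1.78 without library 56, and that of *Amtn* became 0.01 without library 49, −0.04 without library 53 and −1.58 without library 56. Across the 7 genes the *Tgfbr2cko* mean was higher for 3 and lower for 4.

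To compare levels between genes, CPM was divided by the length of each gene's merged exons. On that scale the control median was 2149 CPM per kb for *Amelx*, 1301 for *Ambn*, 243 for *Mmp20*, 153 for *Klk4*, 33.5 for *Enam*, 18.0 for *Odam* and 10.7 for *Amtn*. The control ranges of *Mmp20* (140 to 337 CPM per kb) and *Klk4* (123 to 176) overlapped, as did those of *Amelx* (1396 to 11918) and *Ambn* (972 to 4929), and those of *Enam*, *Odam* and *Amtn*. In the *Tgfbr2cko* libraries the median of *Klk4* was 24.2 CPM per kb, which placed it under *Enam* (133) and *Mmp20* (185) and next to *Odam* (23.3) and *Amtn* (13.3).

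The 3 matrix genes kept their proportions within narrower limits than their levels, as did *Odam* and *Amtn*. The log2 difference of *Enam* and *Amelx* within a library stayed inside 0.87 log2 units over the 8 libraries, although each gene ranged over more than 6 units, and that of *Ambn* and *Amelx* stayed inside 1.16 units. *Amtn* and *Odam* stayed inside 1.78 units, while *Mmp20* and *Amelx* ranged over 5.37 units. Pearson's r over the 8 libraries, which may share donors since the labels do not say, was 0.990 for *Amelx* and *Ambn*, 0.991 for *Amelx* and *Enam*, and 0.980 for *Odam* and *Amtn*. Without library 56 (n = 7) these were 0.990, 0.977 and 0.992. The r of *Amelx* was 0.785 with *Odam*, 0.502 with *Mmp20* and −0.101 with *Klk4*, and 0.764, 0.298 and 0.110 without library 56. The r of *Amelx* with *Klk4* pools 2 genotypes between which *Klk4* did not overlap. Within the controls these 2 genes ranked the libraries in the same order, and within *Tgfbr2cko* both were highest in library 56 and next in library 55. *Klk4* had an r of 0.407 with *Odam*, 0.452 with *Amtn* and 0.521 with *Mmp20* (0.587, 0.561 and 0.694 without library 56), values that pool 2 genotypes between which *Klk4* did not overlap. Within the *Tgfbr2cko* group *Klk4*, *Mmp20*, *Odam* and *Amtn* all ranked libraries 53 to 56 in the same order. Within the controls 6 of the 7 genes were highest in library 49, *Mmp20* being the exception, and all 7 were lowest in library 50. *Mmp20* had an r of 0.765 with *Odam* (0.708 without library 56).

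Of the ratios across stages some separated the genotypes and others did not. The log2 difference of *Klk4* and *Mmp20* was −1.77, −1.58, −2.30 and −2.40 in the controls and −3.95, −4.53, −4.20 and −4.67 in *Tgfbr2cko*, with means of −2.01 ± 0.40 and −4.34 ± 0.32 (SD, n = 4 each) and no overlap. The spread of this difference within a genotype was small in both groups. *Odam* relative to *Amelx* was −6.29, −7.66, −5.66 and −7.40 in the controls and −10.28, −7.94, −7.99 and −9.37 in *Tgfbr2cko*, which also did not overlap, though the nearest libraries lay only between −7.66 and −7.94. *Amtn* relative to *Amelx* did overlap, and so did *Klk4* relative to *Amelx*, by a narrow margin (−5.76 in control library 49 and −5.75 in library 54). These ratios were computed from the values that chose the set and are likewise given without a test.

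**Figure D3:**
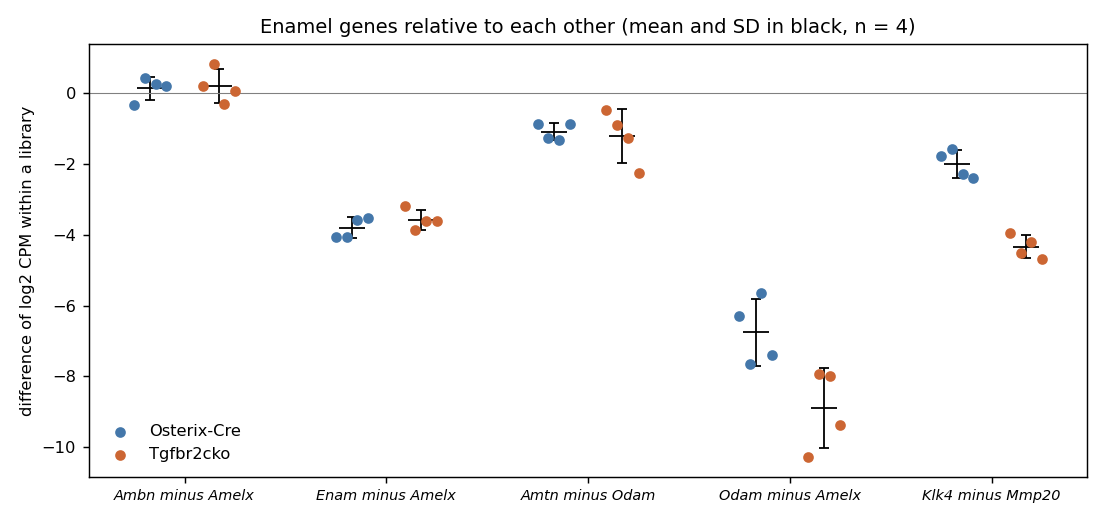
Difference of log2 CPM between pairs of enamel genes within each library (y axis) for 5 pairs (x axis), by genotype, with mean and SD (n = 4) in black. *Enam* and *Ambn* relative to *Amelx* overlap between genotypes, while *Klk4* relative to *Mmp20* runs from −2.40 to −1.58 in the controls and from −4.67 to −3.95 in *Tgfbr2cko*.

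Library titles carry a further number that the labels do not explain, and 3 pairs of libraries of 1 genotype share it. *Amelx* differed by 3.09 log2 units between control libraries 49 and 50, by 5.48 between *Tgfbr2cko* libraries 53 and 56, and by 3.60 between 54 and 55. *Odam* differed by 4.46, 6.39 and 3.54 in the same pairs. The proteases differed less within these pairs, *Mmp20* by 0.71, 1.91 and 0.35 and *Klk4* by 0.51, 1.19 and 0.69. In every pair the library that was higher for *Amelx* was also higher for each of the other 6 genes.

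**Figure D4:**
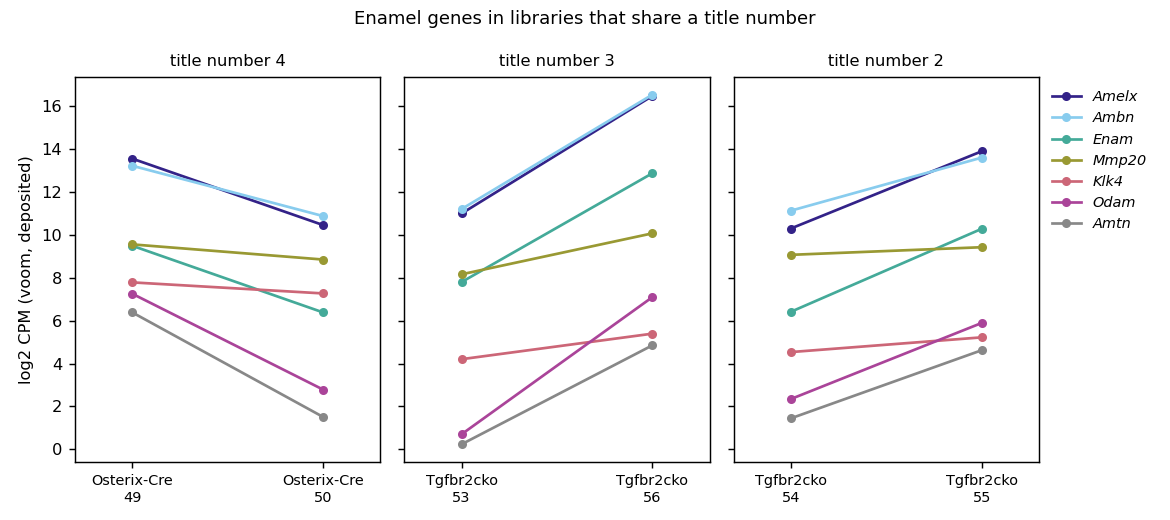
Log2 CPM of the 7 enamel genes (y axis) in the 3 pairs of libraries (x axis) that share a genotype and a title number, with 1 line per gene. All lines in a panel slope the same way, steeply for the matrix genes and for *Odam* and *Amtn* and less for *Mmp20* and *Klk4*.

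The spread within a genotype set 5 of the members near the top of all genes. Spread between libraries helped select the set, so this place is a description only. The pooled SD within genotypes was 2.24 log2 units for *Amelx*, 1.96 for *Ambn*, 2.22 for *Enam*, 2.50 for *Odam* and 2.17 for *Amtn*, against a median of 0.28 over the 12148 genes. Between 4 and 14 genes had a larger one. For *Mmp20* (0.68) 546 genes did, and for *Klk4* (0.43) 2373 genes did.

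Among the 8 genes whose profile over the libraries was most like the mean of *Amelx*, *Ambn* and *Enam* were *Acp4* (r = 0.986), *Lama3* (0.986), *Fxyd3* (0.985), *Chst1* (0.982), *Cldn20* (0.979), *Klk8* (0.978) and *Calb1* (0.967), and without library 56 the r of these 7 ranged from 0.935 to 0.967. *Acp4*, an acid phosphatase needed for normal enamel, was 5.71, 2.52, 3.06 and 4.08 log2 CPM in the controls and 2.39, 2.56, 6.52 and 9.31 in *Tgfbr2cko*. *Lama3* encodes a laminin chain of the epithelial basement membrane, and *Calb1* encodes a calcium-binding protein abundant in ameloblasts. *Klk8* is also the nearest measured neighbour of *Klk4*, 77.3 kb before it, yet it followed the matrix genes, with 2.07 to 2.85 log2 CPM in the controls and 2.23 to 4.10 in *Tgfbr2cko*.

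The profile of *Klk4* was most like those of *Ncmap* (r = 0.984), *Cib3* (0.981), *Slco3a1* (0.974), *Prcp* (0.972) and *Cfap70* (0.968). These 5 genes did not overlap between genotypes either, as 5.27% of all genes did not. That follows largely from choosing them by their likeness to *Klk4*. None of these 5 was among the genes most like the matrix mean. *Ncmap*, which encodes a myelin-associated membrane protein, ran from 5.60 to 6.24 log2 CPM in the controls and from 3.09 to 4.24 in *Tgfbr2cko*.

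Markers of the enamel organ epithelium were present in every library, and their sum, like the matrix genes, was highest in libraries 56 and 55. Of 20 listed markers 14 were in the table, and none had a value of 0 reads. Their summed level was 1063, 481, 737 and 609 CPM in the controls and 532, 771, 1913 and 6573 CPM in *Tgfbr2cko*, so that libraries 56, 55 and 49 were again the 3 highest. The place of library 49 above library 54 rested on *Calb1*, at 8.55 log2 CPM in library 49 and 4.92 in library 54. Without *Calb1* the sum of library 49 was under that of library 54. The median r of the 14 genes with the matrix mean was 0.903 (n = 8), and 13 of them exceeded 0.8, as did 1.39% of all genes. Without library 56 the median r was 0.703, and 2 of the 14, *Calb1* (0.951) and *Esrp1* (0.874), exceeded 0.8, as did 0.404% of all genes.

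All 14 epithelial markers were highest in library 56, where 6.84% of all genes were highest, and *Epcam* (r = 0.395) was the 1 marker that did not exceed 0.8. *Krt14*, a keratin of basal epithelial cells, was 7.64, 7.01, 7.57 and 7.18 log2 CPM in the controls and 7.06, 7.57, 8.95 and 10.62 in *Tgfbr2cko*. The part of these cells in the level of the enamel genes was not tested. Summed odontoblast markers (8 genes) ran from 45980 to 98630 CPM in the controls and from 28320 to 61090 CPM in *Tgfbr2cko*, and summed pulp mesenchyme markers (8 genes) from 26380 to 44780 CPM and from 17240 to 25600 CPM. The CPM totals include the enamel reads, 19.3% of library 56, which lowers every other sum in that library. Summed red cell markers (5 genes) were 1496, 655, 747 and 766 CPM in the controls and 694, 565, 676 and 2541 CPM in *Tgfbr2cko*, again highest in libraries 56 and 49. Endothelial markers (5 genes) ran from 211 to 291 CPM and from 174 to 227 CPM, macrophage markers (4 genes) from 390 to 521 CPM and from 228 to 475 CPM, and osteoclast markers (2 of 4 genes) from 212 to 276 CPM and from 207 to 425 CPM, in controls and *Tgfbr2cko* respectively. Of 4 Schwann cell markers only 1 was in the table. The part of these cells in the enamel gene values was not tested either.

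**Figure D5:**
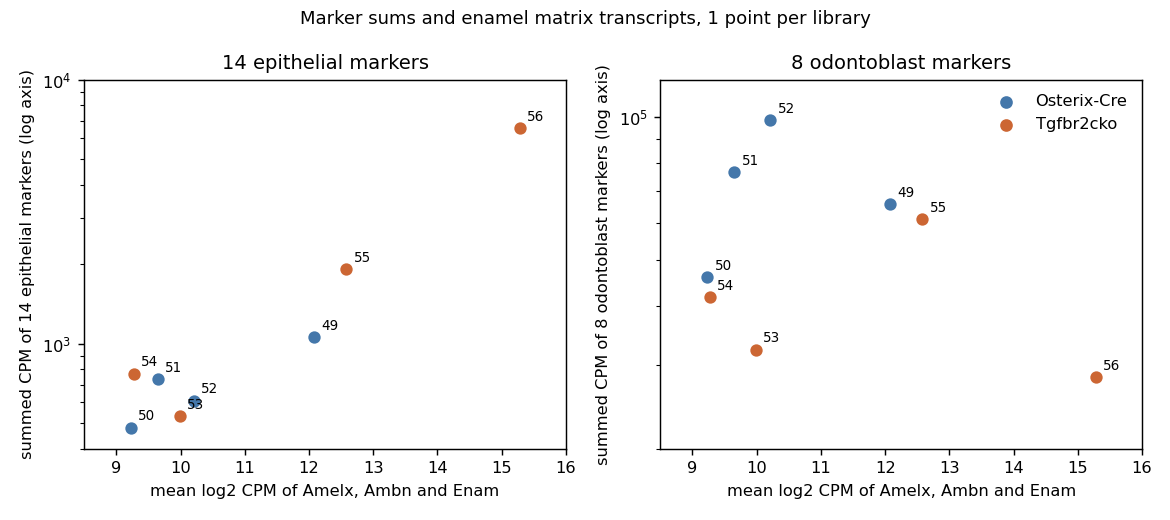
Summed CPM of 14 epithelial markers (left) and of 8 odontoblast markers (right), both on a log axis, against the mean log2 CPM of *Amelx*, *Ambn* and *Enam* (x axis), with 1 numbered point per library. The epithelial sum is highest in libraries 56, 55 and 49 at the right of the plot, with 49 above 54 only through *Calb1*. The odontoblast sum runs from 28320 to 98630 CPM, on totals that include the enamel reads.

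In the limma-trend comparison of the genotypes, a gene was called at an unadjusted p under 0.05 with at least a 1.5-fold change, and 2.12% of all genes (258) were called higher and 3.65% (443) lower in *Tgfbr2cko*. With library totals taken without the enamel genes the calls were 343 higher and 354 lower, and without library 56 they were 303 and 341. Of the 14 epithelial markers 5 were called higher and 0 lower. They included the tight junction gene *Cldn1* (log2 fold change 2.05, SE 0.86), the keratin *Krt17* (1.67, SE 0.57), the cadherin *Cdh1* (1.15, SE 0.50) and the desmosomal gene *Dsp* (1.06, SE 0.39). None passed an adjusted p under 0.05, as 0.947% of all genes did, and the smallest adjusted p was 0.287 in limma-trend, with 5 of the 14 at an unadjusted p under 0.05. The median log2 fold change of the 14 was 1.15, against −0.01 over all genes. Without library 56 the count was 1, with log2 fold changes of 0.96 for *Cldn1*, 0.97 for *Krt17*, 0.55 for *Cdh1* and 0.57 for *Dsp*. Without library 53 the count was 12, where 353 of all genes were called higher. At an adjusted p under 0.05 the limma-trend count was 1 without library 53 and 6 when libraries of 1 genotype and title number were averaged. That averaging joined library 53 with 56 and 54 with 55, each time a lower epithelial sum with a higher one. The spread within these pairs then no longer counted in the p values, and fewer values per genotype were left.

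Of 36 listed genes that act with the enamel proteins in ion transport, adhesion, signalling or transcription, 29 were in the table. In limma-trend 1 was called higher and 2 lower, 6 had an unadjusted p under 0.05 and 0 an adjusted one, with a smallest adjusted p of 0.314. *Col17a1*, a hemidesmosomal collagen, rose by 1.15 (SE 0.43), from 5.11 to 6.09 log2 CPM in the controls to 5.63 to 8.28 in *Tgfbr2cko*, and by 0.64 without library 56. *Relt*, a receptor of the tumour necrosis factor family required for enamel, fell by 1.14 (SE 0.40), from 7.08, 6.42, 7.21 and 7.49 log2 CPM in the controls to 4.70, 5.66, 6.05 and 7.20 in *Tgfbr2cko*. Its difference was −0.74 without library 53 and −1.58 without library 56. *Car6*, a secreted carbonic anhydrase, fell by 0.91 (SE 0.37), though the difference was −0.55 without library 49 and −0.70 without library 56, when it was no longer called. *Slc4a4*, a bicarbonate cotransporter, differed by 0.57 (SE 0.24), under the fold required, and by 0.39 without library 56. It was called, at 0.65, with library totals taken without the enamel genes, and also without library 49, 51, 54 or 55.

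The share called higher among these 29 was 1 gene, beside 2.12% of all genes, and the share called lower 2 genes, beside 3.65%. Their median log2 fold change was 0.07, and their median r with the matrix mean was 0.451 (n = 8), with 5 genes over 0.8, and 0.132 without library 56, with 3 genes over 0.8. *Acp4*, *Lama3*, *Lamb3* and *Col17a1* were among the 5 over all 8 libraries. The count called was 8 without library 53 and 6 without library 54, where 947 and 770 of all genes were called, against 701 with all 8 libraries.

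The dentin and bone relatives of the matrix genes, the secretory calcium-binding phosphoproteins, varied less between libraries, over at most 3.02 log2 units (*Ibsp*). Of 7 listed genes, *Sparc* and *Sparcl1* included, 5 were measured, and limma-trend called 1 higher and 0 lower (2.12% and 3.65% of all genes), with 0 at an adjusted p under 0.05 (0.947% of all genes) and 1 at an unadjusted p under 0.05. The called gene was *Ibsp*, which encodes bone sialoprotein, with a log2 fold change of 1.24 (SE 0.39, adjusted p = 0.23) and 5.43, 4.58, 4.54 and 5.12 log2 CPM in the controls against 5.21, 6.05, 5.81 and 7.56 in *Tgfbr2cko*. Without library 56 the change of *Ibsp* was 0.77, and its r with the matrix mean was 0.814 over 8 libraries and 0.424 without library 56. *Dspp*, the main non-collagenous dentin gene, ranged from 11.99 to 14.02 log2 CPM over the 8 libraries, and its r with the matrix mean was −0.380, or 0.083 without library 56.

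*Csn3*, which encodes κ-casein, is the nearest measured neighbour of *Odam*, 31.4 kb after it, and its profile was the one most like *Odam* (r = 0.975, n = 8) and also most like *Amtn* (r = 0.971) among all genes outside the 7. It was 7.92, 2.85, 4.31 and 4.87 log2 CPM in the controls and 0.24, 2.90, 6.39 and 7.19 in *Tgfbr2cko*. The next gene for *Odam* was *Ggt5* (0.931), with a range of 1.88 log2 units against 7.68 for *Csn3*. The genotypes overlapped for *Csn3*, with a difference of −0.81 (SE 1.32, adjusted p = 0.995, limma-trend). On the other side of the stretch *Utp3*, 48.4 kb after *Enam*, stayed between 5.13 and 5.59 log2 CPM in all 8 libraries.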

How the data were processed

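Dental pulp RNA of P7 first molars was measured in 8 libraries. Per the labels and the methods, the authors trimmed reads with fastp 0.21.0, aligned them with HISAT2 2.1.0, counted them per gene with featureCounts (Subread 2.0.1) and applied voom. The submitters' processing notes name GRCm38.p5, while the methods write GRCh38 with GENCODE M14, a mouse annotation. The strand setting of the counting was not given in the sources used here. The deposited values are log2 CPM made by the authors with 0.5 added to each count, and all 97184 values gave back whole reads (tolerance 0.001). Genes filtered out by the authors were not analysed here.

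Genes were matched to GENCODE M21 (GRCm38) by identifier without version, and 12144 of 12148 had a symbol. Genotypes were compared in R 4.3.3 with limma 3.58.1 (limma-trend, two-sided, 4 against 4, no covariates), with Benjamini-Hochberg adjustment over 12148 genes, and the code was tested on simulated data. The 7 enamel genes, the lists and the rules were chosen with earlier results of these data known. Named genes are the members, *Tgfbr2*, *Arhgap6*, the genes of each list past an adjusted p under 0.05 or else the 2 highest and 2 lowest at an unadjusted p under 0.05, the genes most like the matrix mean or *Klk4*, and the nearest measured neighbours. Values of 2 such genes are not reported here, although every count includes them. *Krt14*, *Epcam*, *Dspp*, *Lamb3*, *Ggt5* and the profiles of *Csn3* were added after their values were seen. Alternatives were other scalings, a filter at a mean log2 value of 3, other weights, no trend, averaged title numbers and each library left out. Figures used matplotlib 3.10.9 in Python 3.11.15.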

Additional observations from a re-analysis of the deposited data

Results flagged for a closer look

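Among 112 groups of 4 libraries (56 genes of the members and lists, each in both genotypes), 1 was set apart by a single library. *Dlx3*, a homeobox transcription factor of ameloblasts and odontoblasts, was 9.10 log2 CPM in control library 50 and between 8.52 and 8.61 in the other controls, and the gap was 0.836 of the group's range, above Dixon's critical value for a group of 4. Chance alone sets apart about 1 group in 20. No member was set apart in either genotype by this measure.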

How the results depend on the processing

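No paired analysis was possible because the genotypes share no replicate number, and only 1 of the unexplained title numbers occurs in both. The differences of the 7 enamel genes moved by less than 1 pooled SD within genotypes under every alternative run. The sign changed for *Odam* without library 53 (0.35) or 49 (0.07) and for *Amtn* without library 49 (0.01). Averaging CPM on a linear scale, which weights library 56 most, gave log2 ratios of 2.63 for *Amelx*, 2.77 for *Ambn* and 2.95 for *Enam*, and of −0.04 for *Odam*. *Klk4* stayed between −2.89 and −2.50. The 5 epithelial markers called became 3 after median centring, 3 with voom weights, 3 without the intensity trend, 2 after quantile normalization and 12 with title numbers averaged, and ran from 1 (without library 56) to 12 (without library 53) with 1 library left out. The 3 enamel partner genes called became 8 with title numbers averaged, and ran from 2 (without library 50) to 8 (without library 53). Over all genes 701 were called, 779 with title numbers averaged, 625 without library 50, 947 without library 53 and 644 without library 56. In the whole table limma-trend found 115 genes at an adjusted p under 0.05, 258 with library weights, and 65 (without library 51) to 165 (without library 53) with 1 library left out. The cause of these changes was not tested. At an adjusted p under 0.05, averaging title numbers gave 6 epithelial, 2 partner and 1 dentin and bone gene, library weights gave 1 partner and 1 dentin and bone gene, leaving out library 53 gave 1 epithelial and 1 dentin and bone gene, and leaving out library 56 gave 1 partner gene. Over all genes, averaging gave 157 and leaving out library 56 gave 148. Averaging made 1 value of each pair of libraries, so its p values leave out the spread within pairs. The dentin and bone genes kept 1 call at an unadjusted p throughout. At unadjusted p under 0.05, *Cdh1*, *Cldn1*, *Car6* and *Col17a1* each lost their call under at least 1 alternative, and *Dsp* fell under 1.5-fold without library 56. *Slc4a4* gained a call under 6 alternatives. Both *Odam* and *Amtn* rest on few reads in library 53 (14 and 10), which limits their ratios there.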
